A study of Mus musculus with 44 samples.

Results

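Back skin of mice that had 10 weeks to recover from bleomycin was compared with back skin of mice that had 6 weeks. The samples were chosen by their labels alone: 8 mice at 10 weeks of recovery and 6 mice at 6 weeks, 14 of the 44 mice in the series. All were female wild-type C57Bl/6 mice, 8 weeks old when injections began, and both recovery groups had received 100 uL of bleomycin at 1 U/mL under the back skin every day for 4 weeks before treatment stopped. They were therefore about 18 and 22 weeks old at harvest. The bleomycin concentration is that of the study's methods, and the legend of a supplementary figure of the study gives a lower one. The remaining mice, used here as reference levels, were given saline (10 mice) or bleomycin for 2 weeks (10 mice) or 4 weeks (10 mice). No saline group at the recovery ages is named in the sources, so time since bleomycin, age and day of harvest cannot be told apart between the recovery groups. The age of the saline mice at harvest is not given either. Recovery and age therefore cannot be told apart in any contrast of recovery mice with saline. Each sample is a separate mouse, and whole skin was measured by RNA-seq, so that fewer cells of a type and less RNA per cell cannot be told apart in any value given here.

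Bleomycin breaks DNA, and its repeated injection into mouse skin brings inflammation, activated fibroblasts and a thickened dermis packed with collagen. When injections stop, inflammation fades first, while deposited collagen is removed slowly: fibroblasts and macrophages cut it outside the cell with metalloproteinases and digest the fragments in lysosomes with cathepsins. Crosslinks set by lysyl oxidases make the fibres resistant to this turnover. Mouse skin also cycles through phases of hair growth and rest, which change its RNA on a large scale.

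Each of the 14 recovery libraries held between 11019337 and 15285577 reads assigned to genes. Library totals overlapped between the groups. Skin markers were abundant in every one of them: the epidermal keratin Krt10 had at least 37900.3 normalized counts (reads divided by the authors' size factor), and the fast-twitch myosin Myh4, of the muscle sheet under the skin, had at least 31117. Hair-follicle RNA varied widely among these mice. The mean log2 level of 14 hair shaft keratins ran from 1.74 to 10.13 at 6 weeks and from 3.77 to 10.70 at 10 weeks. Mouse 5 at 6 weeks stood lowest and mouse 4 at 6 weeks stood above the other 5 of its group, and the groups overlapped widely. A further fit therefore had the mean level of these keratins and of inner root sheath genes (the hair score of each mouse) as a covariate. It was added after the data had been seen, and it is given beside many of the results but not all that it alters.

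Across 17037 genes with a mean above 3 normalized counts, 15 passed a fold change of 1.5 and a Benjamini-Hochberg adjusted p of 0.05 in limma (0.088% of the genes tested). Of these, 12 were lower at 10 weeks (0.0704%) and 3 were higher (0.0176%). The median log2 fold change over all genes was 0.001, with 49.8% of genes below 0 and 50.2% above it. The adjusted p alone was passed by 16 genes (0.0939%), and at an unadjusted p of 0.05, 886 genes were lower (5.2%) and 1159 were higher (6.8%). In 100 genes every mouse at 10 weeks was below every mouse at 6 weeks (0.587%), and in 29 every mouse was above (0.17%). The 15 genes are described singly, those that fell first.

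**Figure D1:**
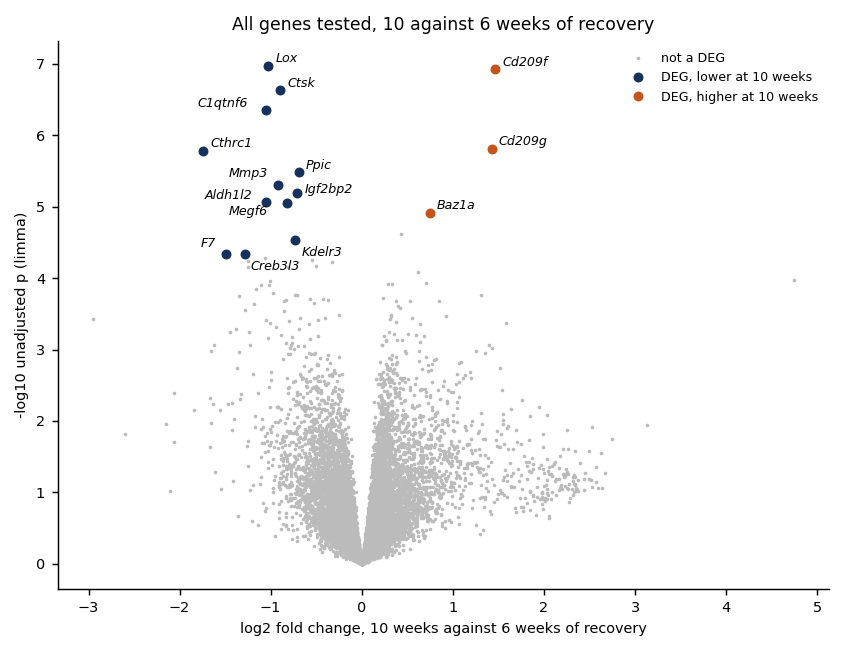
Each point is 1 of the 17037 genes tested, placed by its log2 fold change at 10 weeks against 6 weeks of recovery (horizontal axis) and by the -log10 of its unadjusted limma p (vertical axis). The 15 named genes passed both thresholds, 12 on the lower side and 3 on the higher side.

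Lox encodes lysyl oxidase, which oxidises lysines of collagen and elastin so that the fibres crosslink. It ranged from 903 to 1897 (median 1228) normalized counts at 6 weeks and from 418 to 790.1 (median 642) at 10 weeks. The groups did not overlap, and the 10-week median was close to the saline median of 610.5. Lox fell by 1.03 ± 0.16 (SE) on the log2 scale (limma adjusted p = 0.00101). Against saline, it stood 1.10 higher at 6 weeks and 0.07 higher at 10 weeks on that scale, 2 contrasts that share the saline mice. Lox overlaps an annotated antisense gene, but 0.0% of the 50-base stretches of its annotated transcripts occur in another gene on either strand. The strand setting and gene models of the counting are not given in the sources used here, so reads of the antisense gene were not excluded.

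Cthrc1, a secreted collagen triple helix repeat protein made by activated fibroblasts, had the widest drop of the 12. Its 6-week mice held 249.8 to 401 (median 331) normalized counts and its 10-week mice 60.7 to 149.9 (median 91.5). No mouse of the later group reached the earlier one, yet the later median remained above the saline median of 54.2. Its drop by limma was a log2 fold change of -1.74 ± 0.31 (SE), with an adjusted p of 0.0047. It was the gene of the 12 that still passed the test as higher than saline at 10 weeks, with a log2 fold change of 0.97 (adjusted p = 0.0274) after 2.72 at 6 weeks. The gene is at chr15:39076932-39087121 on the plus strand.

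C1qtnf6, a secreted protein of the C1q and TNF-related family, ranged from 415 to 651 (median 439) normalized counts at 6 weeks against 174 to 269 (median 232) at 10 weeks, with no overlap (log2 fold change -1.05 ± 0.18 SE, adjusted p = 0.00191). Among its 6-week values mouse 5 stood above the other 5. The gene, at chr15:78523346-78531416 on the minus strand, overlaps an annotated antisense gene. That gene also holds 2.6% of its 50-base stretches, so its reads may include some of that gene. Megf6, a secreted protein with many EGF-like repeats, ranged from 512 to 686 (median 538) against 186 to 519 (median 315), and the highest mouse of the later group passed the lowest of the earlier one (log2 fold change -0.83 ± 0.16 SE, adjusted p = 0.0135). C1qtnf6 ended below the saline median of 327, while Megf6 ended near its saline median of 353 after 687 at 4 weeks of bleomycin.

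Ctsk encodes cathepsin K, a lysosomal cysteine protease able to cut triple-helical collagen. In the 6-week group it ranged from 3172 to 4627 (median 3609) normalized counts, and in the 10-week group from 1579.7 to 2515 (median 2106), without overlap. The later values lay around the saline median of 1815, whereas the earlier values were all above the median at 4 weeks of bleomycin (3132). Ctsk fell by 0.90 ± 0.15 (SE) on the log2 scale (adjusted p = 0.00132). It lies at chr3:95499256-95509362 on the plus strand of GRCm38, the build of all positions given here.

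Mmp3, stromelysin-1, degrades proteoglycans and non-fibrillar matrix proteins and activates other metalloproteinases. It held 602 to 1080.5 (median 908) normalized counts at 6 weeks and 355 to 635 (median 412) at 10 weeks. The highest mouse at 10 weeks passed the lowest at 6 weeks. Mmp3 fell by 0.92 ± 0.18 (SE) on the log2 scale (adjusted p = 0.0104) towards a saline median of 346. Of 50-base stretches of its annotated transcripts, 8.4% also occur in another gene, mostly its neighbour Mmp10. The gene occupies chr9:7445822-7455975 on the plus strand.

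The stretch before the Mmp3 start is shown because AP-1 and TATA motifs there are textbook elements of stromelysin promoters. It lies at chr9:7445572-7445821 on the plus strand of GRCm38.p6, from the RefSeq promoter table. Capitals mark the AP-1 motif TGAGTCA, 40 to 46 bases before the start, and the TATA motif TATAAA, 2 to 7 bases before it. Both distances are counted from the annotated RefSeq start, and where transcription begins in these mice was not tested.
Mmp3: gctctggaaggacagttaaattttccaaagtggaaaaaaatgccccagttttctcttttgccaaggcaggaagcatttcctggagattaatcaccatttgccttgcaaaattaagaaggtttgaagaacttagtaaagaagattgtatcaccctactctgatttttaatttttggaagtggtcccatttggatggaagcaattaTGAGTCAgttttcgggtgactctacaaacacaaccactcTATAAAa
Searched on both strands, TGAGTCA occurs in 4.5% and TATAAA in 12.4% of the 32851 windows of this length in the table. Such a match is a description of the sequence and was not tied to binding in these mice.

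Ppic, Kdelr3 and Creb3l3 also fell. Ppic, a prolyl isomerase (cyclophilin C), ranged from 1002 to 1218 (median 1059) against 582 to 743 (median 703) normalized counts, with every later mouse below every earlier one (log2 fold change -0.69 ± 0.13 SE, adjusted p = 0.00804). Kdelr3, a receptor that returns chaperones to the endoplasmic reticulum, ranged from 266 to 421 (median 311) against 159 to 235 (median 196), also without overlap (log2 fold change -0.74 ± 0.16 SE, adjusted p = 0.0357). Creb3l3, a membrane-bound transcription factor of the same compartment, had 18.97 to 57.4 (median 48.8) against 9.75 to 22.3 (median 16.8) normalized counts, with overlapping groups (log2 fold change -1.29 ± 0.28 SE, adjusted p = 0.0485). Kdelr3 overlaps another gene in the annotation, but, as for Lox, 0.0% of its 50-base stretches occur in another gene.

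The other 3 genes that fell were Aldh1l2, Igf2bp2 and F7. Aldh1l2, the mitochondrial 10-formyltetrahydrofolate dehydrogenase, had 48.1 to 62.6 (median 52.7) normalized counts at 6 weeks and 17.5 to 31.6 (median 26.7) at 10 weeks (log2 fold change -1.05 ± 0.21 SE, adjusted p = 0.0135), and 13.6% of its 50-base stretches are shared with other genes, chiefly one that overlaps it. Igf2bp2, an RNA-binding protein, had 37.9 to 58.3 (median 49.8) against 25.7 to 32.1 (median 29.4) (log2 fold change -0.71 ± 0.14 SE, adjusted p = 0.0122). F7, coagulation factor VII, had 18.5 to 32.6 (median 23.8) against 4.64 to 16.0 (median 8.06) (log2 fold change -1.49 ± 0.33 SE, adjusted p = 0.0485), after a median of 73.5 at 4 weeks of bleomycin. All of these groups were apart.

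Of the 12 genes that fell, 7 had been raised at 4 weeks of bleomycin over saline (Aldh1l2, Cthrc1, Ctsk, F7, Lox, Megf6 and Mmp3; 10.6% of genes tested were called higher there). In the 6-week mice, 5 of the 12 were called above saline (Cthrc1, Ctsk, Lox, Megf6 and Mmp3; background 3.33%), and in the 10-week mice 1 was (Cthrc1; background 2.05%). Creb3l3 was called lower than saline at 10 weeks (background 0.998%). The 4-week contrast shares no mouse with the comparison of recovery times, while both saline contrasts of recovery mice share mice with it.

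Cd209f and Cd209g are C-type lectins of the DC-SIGN family carried by resident macrophages of the dermis, and they were the 2 genes with the largest rise among those past the test. Cd209f held 42.5 to 136 (median 102) normalized counts at 6 weeks and 185 to 312 (median 247) at 10 weeks. Cd209g held 23.6 to 65.6 (median 38.9) and 69.6 to 152 (median 98.8) in the same order. In both, every 10-week mouse was above every 6-week mouse, and every median was below the saline medians of 591 and 274. Cd209f rose 2.76-fold (log2 fold change 1.47 ± 0.23 SE, adjusted p = 0.00101) and Cd209g 2.69-fold (log2 fold change 1.43 ± 0.26 SE, adjusted p = 0.0047). At 10 weeks they were still -1.21 and -1.26 from saline on the log2 scale (adjusted p = 0.000178 and 0.000373), against -2.67 and -2.68 at 6 weeks.

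Cd209f (chr8:4102787-4105835 on the minus strand) and Cd209g (chr8:4134098-4137707 on the plus strand) are 28262 bases apart, and the stretches before their RefSeq starts are shown because they share a long run of bases, as the transcripts do. Of 50-base transcript stretches of Cd209f, 29.8% recur in Cd209g, and 16.6% of those of Cd209g recur in Cd209f, so part of the reads of either gene cannot be assigned with certainty. The Cd209f stretch is chr8:4105836-4106014 on the minus strand (72 to 250 bases before the start) and the Cd209g stretch is chr8:4134486-4134651 on the plus strand (85 to 250 bases before it), both GRCm38.p6 from RefSeq, whose starts are used for these distances. The RefSeq start of Cd209g is downstream of where the GENCODE gene given above begins, so its stretch lies inside that gene's span. Capitals mark TGAGTCA.
Cd209f: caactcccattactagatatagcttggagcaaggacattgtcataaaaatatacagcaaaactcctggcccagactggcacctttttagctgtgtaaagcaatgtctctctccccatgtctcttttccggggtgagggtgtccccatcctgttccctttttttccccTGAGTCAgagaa
Cd209g: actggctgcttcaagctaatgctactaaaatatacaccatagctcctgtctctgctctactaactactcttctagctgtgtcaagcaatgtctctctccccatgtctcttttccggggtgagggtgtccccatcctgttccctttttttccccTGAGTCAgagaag
The longest run shared by both is 83 bases and holds the AP-1 motif, which occurs in 3.1% and 2.9% of windows of these lengths. Of the 15 genes past the test, 10 had a window in the table. The full 250-base windows of 5 (C1qtnf6, Cd209f, Cd209g, Creb3l3 and Mmp3) held TGAGTCA on either strand, beside 4.5% of all windows. Those of Cd209f and Cd209g lie in the shared run, so they are not separate occurrences. TATAAA was in the windows of 3 (Cd209f, Cd209g and Mmp3), beside 12.4% of all windows. In Cd209f and Cd209g it lies nearer the start than the stretches shown. The bases there were left out of the stretches because they are in exons of annotated coding transcripts. Neither count was tested.

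The other 5 lectins of the family did not pass the test. Cd209d had 141 to 333 (median 194) normalized counts at 6 weeks and 219.8 to 331 (median 279.7) at 10 weeks (log2 fold change 0.40, adjusted p = 0.393), and the groups overlapped. Cd209a and Cd209b were at log2 fold changes of 0.02 and 0.09. Over all 7, 6 were above 0 and the median was 0.13. All 7 had been lower than saline at 4 weeks of bleomycin (background 7.37%), and 5 were lower than saline at each recovery time (backgrounds 1.71% and 0.998%).

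The remaining gene that rose was Baz1a, a subunit of ATP-dependent chromatin remodelling complexes. It ranged from 32.8 to 51.0 (median 45.7) normalized counts at 6 weeks against 54.3 to 110.3 (median 78.5) at 10 weeks, with no overlap (log2 fold change 0.75 ± 0.15 SE, adjusted p = 0.0172). Its saline median was 65.7, between both. Baz1a overlaps other annotated genes, a protein-coding one on the same strand among them, and 8.6% of its 50-base stretches recur elsewhere, so its count may hold reads of these genes. The gene is at chr12:54892989-55014348 on the minus strand.

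**Figure D2:**
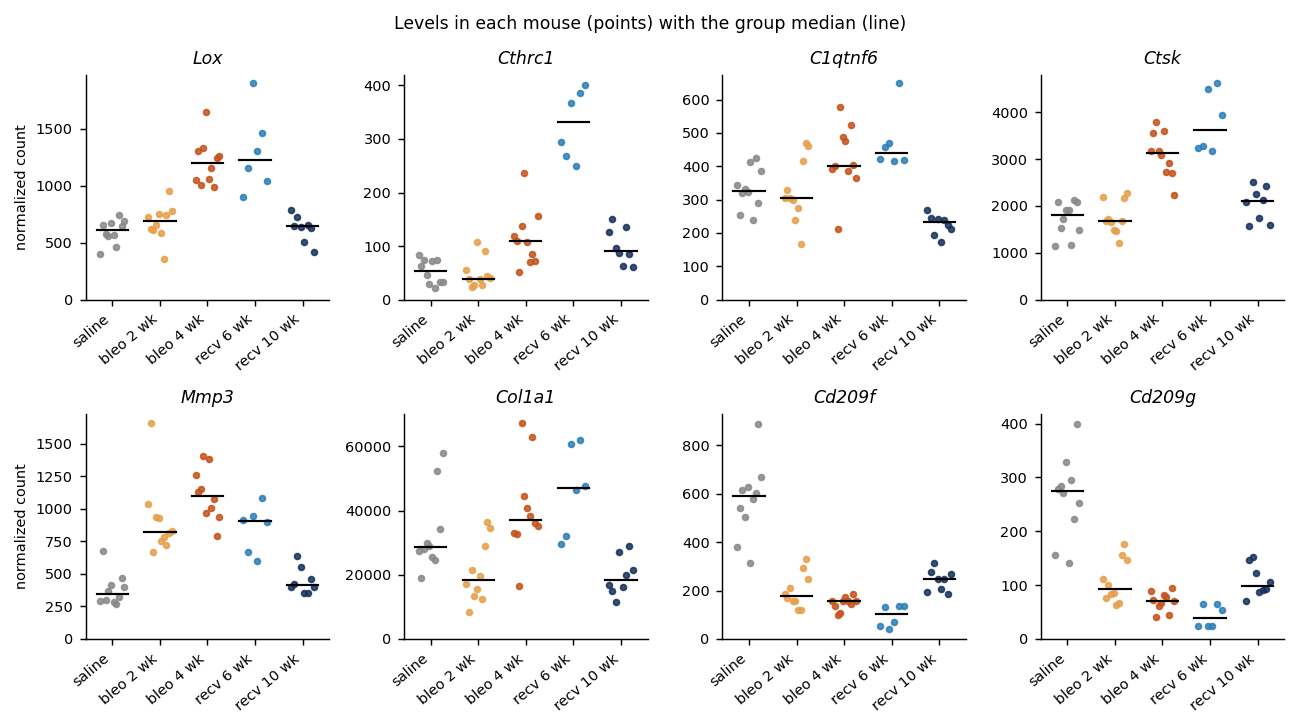
Normalized counts of 8 genes (vertical axes, from 0) in every mouse of the 5 groups (horizontal axis), each point a mouse and each bar the group's median. Lox, C1qtnf6 and Ctsk at 10 weeks lie below all 6-week mice, Mmp3 overlaps, and Cd209f and Cd209g lie above all 6-week mice and below the saline median.

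With the hair score as a covariate, 7 of the 15 genes still passed: Lox (log2 fold change -0.95), Ctsk (-0.77), C1qtnf6 (-0.996), Cthrc1 (-1.68), Ppic (-0.65), Cd209f (1.48) and Cd209g (1.54). The other 8 kept their direction with adjusted p from 0.0525 to 0.221. When each recovery mouse was left out in turn, F7 passed in 3 of 14 fits, Creb3l3 and Kdelr3 in 5 each and Baz1a in 9. Without 6-week mouse 3 the number of genes past the test was 6, and without 10-week mouse 4 it was 30. Cd209f, Cd209g, Cthrc1, Ctsk, C1qtnf6 and Lox passed in all 28 alternative fits.

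Because so few genes passed, 58 lists of genes with a shared role were described by counts and medians. Of their medians, 39 were below 0 and 19 above it, and 22 were below -0.2. The 3 lowest medians were those of extracellular matrix lists (fibrillar collagens, small leucine-rich proteoglycans and metalloproteinases). In contrast, the highest were those of the growing hair follicle, with medians of 2.22 for hair shaft keratins, 2.16 for hair keratin-associated proteins and 2.09 for the inner root sheath.

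**Figure D3:**
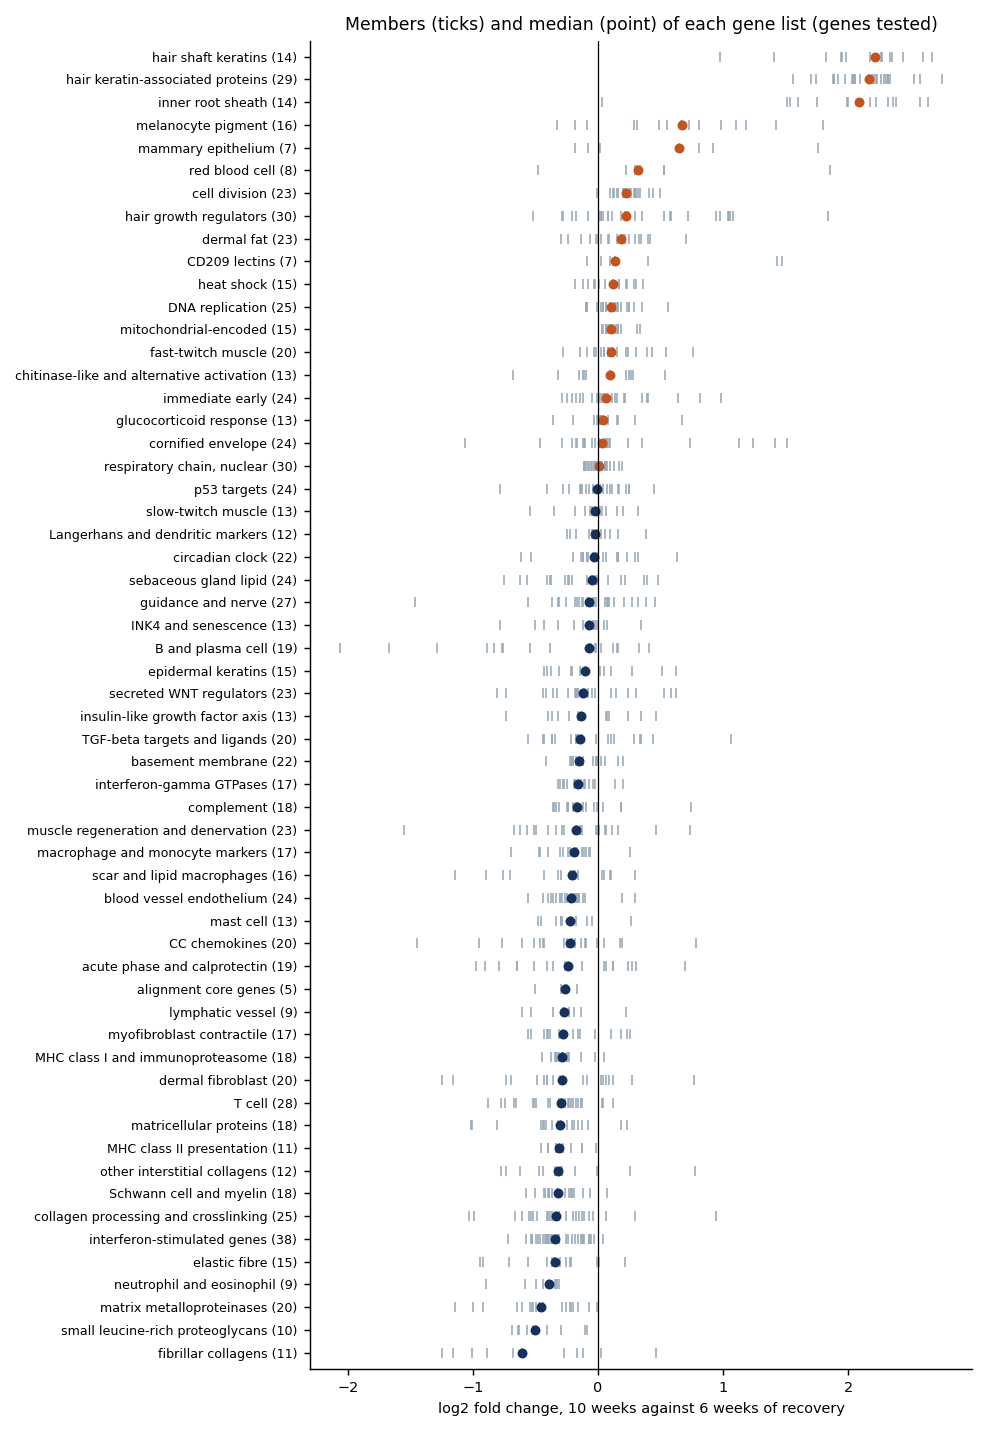
For each of 58 gene lists, each tick is a gene's log2 fold change at 10 weeks against 6 weeks of recovery (horizontal axis) and the point is the list's median. Matrix, metalloproteinase and interferon lists sit to the left of 0. Hair shaft keratins, hair keratin-associated proteins and the inner root sheath sit far to the right.

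Among 11 fibrillar collagen genes, which form the load-bearing fibres of the dermis, 9 were below 0 and the median log2 fold change was -0.60. None passed the test, 6 were lower at an unadjusted p of 0.05 (all genes, 5.2%) and 1 was higher (all genes, 6.8%). Col1a1, a chain of type I collagen, ranged from 29613 to 62036 (median 47073) normalized counts at 6 weeks and 11524 to 28851 (median 18248) at 10 weeks. Every later mouse was below every earlier one, although the test was narrowly missed (log2 fold change -1.25 ± 0.28 SE, adjusted p = 0.0523). Col1a2, the partner chain, was apart in the same way, with 42128 to 72066 (median 55169.8) against 15144 to 36658 (median 23128) (log2 fold change -1.16 ± 0.28 SE, adjusted p = 0.0768). Col3a1, type III collagen, was at -1.005 (adjusted p = 0.108). The 6-week medians of these genes were above saline, and the 10-week medians were below it: for Col1a1 the saline median was 28540.1. None of the 11 fibrillar collagen genes was called higher or lower than saline at either recovery time.

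As the mean log2 level over these 11 genes, each of the 8 mice at 10 weeks (9.04 to 9.68) was below each of the 6 mice at 6 weeks (9.71 to 10.2). Saline mice ranged from 8.99 to 10.2. With the hair covariate the median was -0.60. Other interstitial collagens had a median of -0.32 over 12 genes, with Col6a1 and Col6a2, chains of beaded-filament collagen VI, at -0.63 and -0.74. Col8a1, a short-chain collagen, had 363 to 823 (median 562) normalized counts at 6 weeks and 175 to 502 (median 353) at 10 weeks, far above its saline median of 82.2 in both groups.

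The enzymes and chaperones that fold, trim and crosslink collagen were mostly below 0 as well. Of 25 genes, 22 were below 0, 12 were lower at an unadjusted p of 0.05 (all genes, 5.2%), and Lox passed the test. The median was -0.34. Adamts2, the procollagen N-proteinase, ranged from 1651 to 2177 (median 1952) against 811 to 1512 (median 1231) normalized counts (log2 fold change -0.66, adjusted p = 0.217). Fkbp10, a collagen chaperone, was at -0.61 (adjusted p = 0.217). In both, groups were apart, while P4ha1, a proline hydroxylase subunit, was at -0.04.

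Small leucine-rich proteoglycans, which bind collagen fibrils and set their spacing, were below 0 in 10 of 10 genes, with a median of -0.51 and no gene past the test. By mean level, 8 of 8 mice at 10 weeks (10.0 to 10.4) were below all mice at 6 weeks (10.5 to 10.9). Bgn, biglycan, went from a median of 9354 to 6018 normalized counts (log2 fold change -0.69, adjusted p = 0.314). Dcn, decorin, was at -0.09 (adjusted p = 0.871).

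Elastic fibre genes had a median of -0.35, with 13 of 15 below 0. Eln, elastin, ranged from 2456 to 5171 (median 4158) against 1222 to 2835 (median 1923) normalized counts, with overlap (log2 fold change -0.95 ± 0.25 SE, adjusted p = 0.117). Its saline median was 2666 and its median at 4 weeks of bleomycin 1428, so that the 6-week median stood above both.

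Matricellular proteins, which tune how cells bind matrix, were below 0 in 16 of 18 genes (median -0.31). Sparc, a collagen-binding glycoprotein, had 28096 to 39132 (median 29502) normalized counts at 6 weeks and 12981 to 20069.8 (median 15359.7) at 10 weeks, with no overlap (log2 fold change -1.02 ± 0.24 SE, adjusted p = 0.0678). Ccn3, a member of the CCN family, had 1290.2 to 2045 (median 1672) and 633 to 1169.8 (median 842), also apart (log2 fold change -1.004 ± 0.24 SE, adjusted p = 0.0678). Ccn3 stayed far above saline at both times, by 3.14 and 2.14 on the log2 scale, although its median at 4 weeks of bleomycin was only 227 against 192 in saline. Tnc, tenascin C, lay on the other side of 0, at 0.19. Of the 18, 8 were called above saline at 6 weeks (all genes, 3.33%) and 5 at 10 weeks (2.05%).

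All 20 metalloproteinase and inhibitor genes tested were below 0 (all genes, 49.8%), with a median of -0.46. Beyond Mmp3, 7 more were lower at an unadjusted p of 0.05 (all genes, 5.2%). Mmp2, gelatinase A, had 6591 to 8544 (median 6982) normalized counts at 6 weeks and 3999.7 to 5729.8 (median 4688) at 10 weeks, without overlap (log2 fold change -0.61, adjusted p = 0.179). Mmp14, its membrane-bound activator, was at -0.50 (adjusted p = 0.231). By the mean over the list, 7 of 8 later mice were below all earlier mice.

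Myofibroblast contractile genes were below 0 in 13 of 17, with a median of -0.28. Acta2, smooth muscle actin, had 2961 to 4264 (median 3347) normalized counts against 2068 to 3899 (median 2581), which overlap (log2 fold change -0.31, adjusted p = 0.461). TGF-beta targets and ligands had a median of -0.14, basement membrane genes -0.15 and dermal fibroblast markers -0.29. Pdgfra, a receptor that marks fibroblasts, was at 0.09, with medians of 658 and 661 normalized counts, both below the saline median of 1425. Secreted WNT regulators had a median of -0.12 and the insulin-like growth factor axis -0.14. In the latter, Igfbp2, a growth factor binding protein, went from 2316 to 1432 normalized counts (adjusted p = 0.0777).

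Interferon-stimulated genes, mostly of the antiviral programme switched on by type I interferon, were below 0 in 37 of 38 (median -0.34). At an unadjusted p of 0.05, 15 were lower (all genes, 5.2%), but none passed the test. Gbp2 and Gbp3 are on this list and on that of interferon-gamma GTPases given below. All 38 had been called above saline at 4 weeks of bleomycin (all genes, 10.6%). In the 6-week mice 10 were (3.33%), and in the 10-week mice 4 (2.05%). Their mean log2 level ranged from 7.51 to 8.03 at 6 weeks and from 7.20 to 7.69 at 10 weeks, against a saline median of 7.39 and 9.27 at 4 weeks of bleomycin. Ifit3, an inhibitor of viral RNA translation, had 285 to 494 (median 409) normalized counts and 204 to 369 (median 274) in that order, with overlap (log2 fold change -0.53, adjusted p = 0.302). Isg15, a ubiquitin-like modifier, was at -0.58 (adjusted p = 0.29) and Xaf1, XIAP-associated factor, at -0.44 (adjusted p = 0.217).

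MHC class I and immunoproteasome genes were below 0 in 17 of 18 (median -0.29), MHC class II genes in 11 of 11 (-0.31), T cell genes in 25 of 28 (-0.29) and interferon-gamma GTPases in 15 of 17 (-0.16). With the hair covariate these medians moved to -0.17, -0.13, -0.10 and -0.08. Cd4, the helper T cell co-receptor, had 108 to 153 (median 121) normalized counts at 6 weeks and 50.2 to 103 (median 71.7) at 10 weeks, with no overlap but no call (log2 fold change -0.74, adjusted p = 0.307). B2m, the light chain of class I molecules, was at -0.33, with medians of 18454 and 14438 and a saline median of 14155. In these lists no gene passed the test.

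Myeloid lists were divided. Macrophage and monocyte markers were below 0 in 16 of 17 (median -0.20) and neutrophil and eosinophil genes in 9 of 9 (-0.39), whereas Langerhans and dendritic markers had a median of -0.02. With the hair covariate these medians were -0.10, -0.31 and 0.15. Among 16 genes of scar and lipid-handling macrophages (median -0.21), 6 were lower at an unadjusted p of 0.05 (all genes, 5.2%), Ctsk among them. Trem2, a lipid receptor of such macrophages, had 71.8 to 113 (median 89.9) normalized counts at 6 weeks and 41.3 to 63.1 (median 54.4) at 10 weeks, apart from each other (log2 fold change -0.76 ± 0.21 SE, adjusted p = 0.148). Adgre1, the F4/80 antigen, and Csf1r, the receptor for colony-stimulating factor, mark macrophages in general and were at -0.24 and -0.10 with overlapping groups. The rise of Cd209f and Cd209g thus stood beside general macrophage markers that did not pass the test in either direction.

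Other immune lists had medians of -0.23 for CC chemokines, -0.23 for mast cells, -0.24 for acute-phase genes, -0.17 for complement, -0.07 for B and plasma cells and 0.09 for chitinase-like genes. With the hair covariate these medians were -0.08, -0.14, -0.15, -0.12, -0.05 and 0.10 in the same order. The B and plasma cell list had a wider mean than median, -0.43, with 4 of 19 genes lower at an unadjusted p of 0.05 (all genes, 5.2%) and, by its mean level, 7 of 8 later mice below all earlier ones. Ccl3, a chemokine for monocytes, had medians of 5.69 and 1.72 normalized counts and no overlap (log2 fold change -1.45, adjusted p = 0.129). Cma1, mast cell chymase, was at -0.29.

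**Figure D4:**
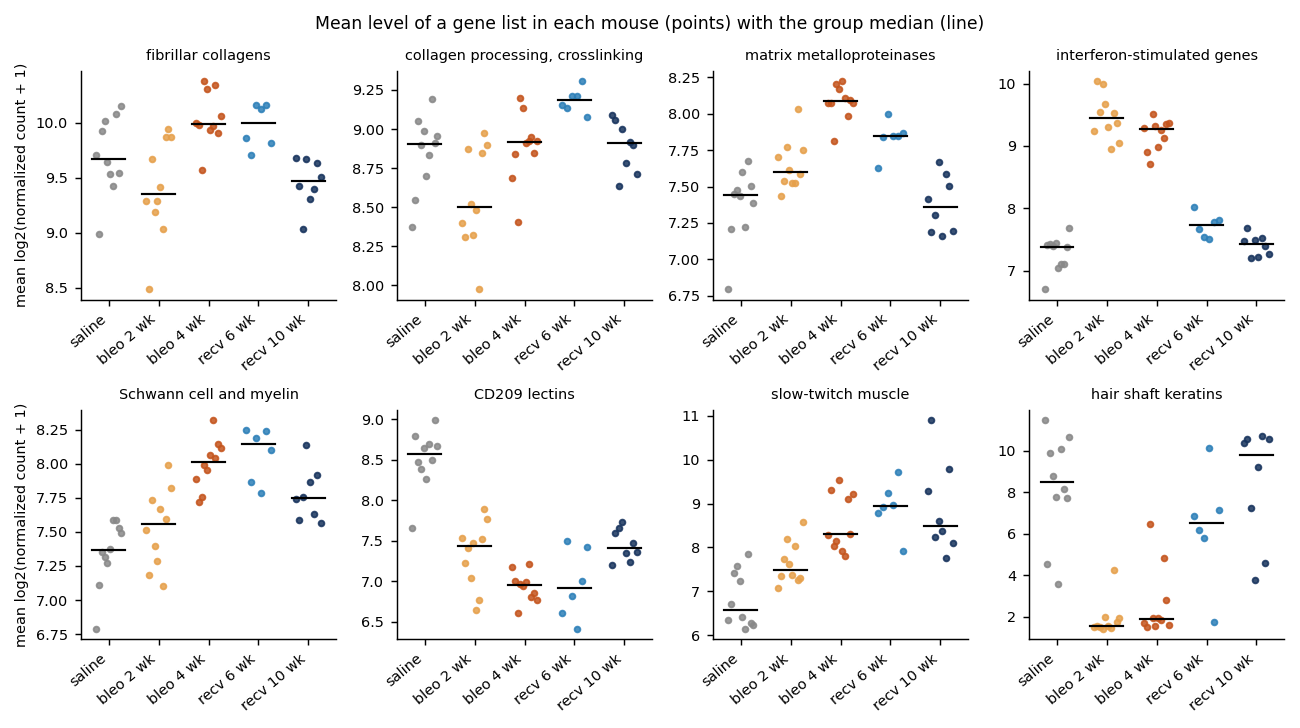
Mean log2 level (vertical axes) of 8 gene lists in each mouse of the 5 groups, each point a mouse and each bar the group's median. Fibrillar collagens separate the recovery groups completely, and interferon-stimulated genes sit well below the 4-week bleomycin mice in both. Hair shaft keratins spread widely in both, from 1.74 to 10.13 at 6 weeks and from 3.77 to 10.7 at 10 weeks.

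Schwann cell and myelin genes were below 0 in 17 of 18 (median -0.32). At 4 weeks of bleomycin 13 of them were called above saline (all genes, 10.6%), at 6 weeks of recovery 13 (3.33%) and at 10 weeks 7 (2.05%). Axon guidance and nerve genes had a median of -0.07.

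Blood vessel endothelial genes were below 0 in 22 of 24 (median -0.21), with 10 called above saline at 6 weeks (all genes, 3.33%) and 1 at 10 weeks (2.05%). Cldn5, an endothelial tight junction protein, had 257 to 420.3 (median 330) normalized counts against 156 to 377 (median 219) (log2 fold change -0.56, adjusted p = 0.305), with overlap. Pecam1 and Cdh5, adhesion proteins of all endothelium, were at -0.15 and -0.22. Lymphatic genes had a median of -0.27 over 9. From the core that the study tied to collagen bundle alignment, 5 genes that it names in its text were read (Emcn, Esam, Gfra3, Robo4 and Sparcl1), and the rest of that core is not analysed here. All 5 were below 0, with a median of -0.26, and all 5 were called above saline at 6 weeks (all genes, 3.33%) and none at 10 weeks (2.05%). They were chosen by the study on these same samples, so these counts are not independent evidence of their direction, and the difference between recovery times passed the test in none of them.

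Muscle lists had medians near 0. Slow-twitch genes had a median of -0.02. At 4 weeks of bleomycin 9 of 13 were called above saline (all genes, 10.6%), and 11 of 13 were at each recovery time (3.33% and 2.05%). Tnnc1, the slow troponin C, stood 4.37 and 4.27 above saline on the log2 scale at 6 and 10 weeks. Its counts were wide within groups, 59.7 to 314 (median 172) and 46.9 to 1687 (median 89.6). Fast-twitch genes had a median of 0.10 and genes of muscle regeneration and denervation -0.18. With the hair covariate the medians of slow-twitch, fast-twitch and regeneration genes were 0.04, 0.21 and -0.07.

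Dermal fat genes were above 0 in 18 of 23 (median 0.19), 4 of them at an unadjusted p of 0.05 (all genes, 6.8%). Adrb3, the beta-3 adrenergic receptor that drives fat breakdown, had 237 to 337 (median 321) normalized counts at 6 weeks and 340.2 to 636 (median 531) at 10 weeks, with no overlap and no call (log2 fold change 0.70, adjusted p = 0.179). Adipoq, adiponectin, was at 0.40 (adjusted p = 0.392), with overlapping groups.

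Hair genes had the highest medians and varied widely within both groups. All 14 hair shaft keratins were above 0 and none passed the test. Krt31, a hair cortex keratin, ranged from 4.10 to 2827 (median 160.2) at 6 weeks and from 8.02 to 3251 (median 2041) at 10 weeks in normalized counts. Low and high mice occurred in both groups. By the mean over hair shaft keratins, 4 of 8 later mice were above all earlier ones. With the hair score as a covariate, which is built from hair genes, the medians turned to -0.14 for hair shaft keratins, -0.13 for hair keratin-associated proteins and -0.18 for melanocyte genes. Without it, hair growth regulators had a median of 0.22, melanocyte pigment genes 0.67 and mammary epithelium 0.64. With it, hair growth regulators were at 0.09 and mammary epithelium at 0.06. Tyr, the tyrosinase of pigment synthesis, had 6.15 to 158 (median 16.8) against 8.91 to 206 (median 79.9) (adjusted p = 0.44).

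Epidermal keratins had a median of -0.10, cornified envelope genes 0.03 and sebaceous gland lipid genes -0.05. In the sebaceous list Scd3, a stearoyl-CoA desaturase, had 2486 to 3815 (median 3229) normalized counts at 6 weeks and 1289 to 2485 (median 1961) at 10 weeks, apart but not called (log2 fold change -0.75, adjusted p = 0.253). Epgn, epigen, a ligand of the EGF receptor, had 14.4 to 39.1 (median 30.8) and 43.6 to 89.1 (median 81.7), with every later mouse above every earlier one (log2 fold change 1.31 ± 0.32 SE, adjusted p = 0.0777).

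Cell division genes were above 0 in 22 of 23 (median 0.22), none at an unadjusted p of 0.05. Against saline, 17 of 23 were called below it at 6 weeks (all genes, 1.71%) and none at 10 weeks, where the share over all genes was 0.998%. Top2a, the topoisomerase of dividing cells, had 383 to 725 (median 505) normalized counts against 405 to 968 (median 698), with a saline median of 931 (log2 fold change 0.40, adjusted p = 0.45). These contrasts share the saline mice, and the change between recovery times itself did not pass the test. DNA replication genes had a median of 0.11. With the hair covariate the medians of cell division and DNA replication genes were 0.14 and 0.02.

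Cdkn2a, a cell cycle inhibitor gene used as a marker of senescent cells, had 82.5 to 194 (median 113) normalized counts at 6 weeks and 51.7 to 130 (median 92.5) at 10 weeks. The groups overlapped, and the difference did not pass the test (log2 fold change -0.51 ± 0.37 SE, adjusted p = 0.589). Both were far above the saline median of 1.25, by 5.78 and 5.28 on the log2 scale, and above the median of 19.8 at 4 weeks of bleomycin. INK4 and senescence genes had a median of -0.07 and p53 targets -0.01, with Cdkn1a at -0.01.

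Lists that could move with handling, time of day or blood content were also read. The medians were -0.03 for the circadian clock, 0.06 for immediate early genes, 0.04 for glucocorticoid targets, 0.12 for heat shock, 0.10 for mitochondrially encoded genes, 0.01 for nuclear respiratory chain genes and 0.32 for red blood cells. The heat shock list nevertheless held 6 of 15 genes higher at an unadjusted p of 0.05 (all genes, 6.8%), and by its mean level 6 of 8 later mice (11.07 to 11.26 over all 8) were above all earlier mice (11.03 to 11.13). Some single genes were wider: Dusp1, a phosphatase induced by stress, had 461 to 612 (median 577) normalized counts against 663 to 1260.2 (median 804), with no overlap (log2 fold change 0.64 ± 0.17 SE, adjusted p = 0.108), and Fos, of the AP-1 factor, was at 0.82 (adjusted p = 0.183). Mitochondrially encoded genes were above 0 in 15 of 15 (all genes, 50.2%), with a median of 0.19 under the hair covariate. Of 24 immediate early genes, 5 were called above saline at 10 weeks (all genes, 2.05%) and 1 at 6 weeks (3.33%). By their mean level, 4 of 8 later mice were above all earlier mice and 2 were below all of them. The part of handling in the results above was not tested.

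The comparison was then read over all genes that bleomycin had moved, since the contrast of 4 weeks of bleomycin with saline shares no mouse with it. Of 1797 genes raised by 4 weeks of bleomycin, 1400 (77.9%) were lower at 10 weeks than at 6, with a median log2 fold change of -0.21, beside 49.8% and 0.001 over all genes. At an unadjusted p of 0.05, 260 of them were lower (14.5%, beside 5.2% of all genes) and 20 higher (1.11%, beside 6.8%). Of 1256 lowered genes, 901 (71.7%) were higher at 10 weeks (median 0.21), and at that p 194 of them were higher (15.4%, beside 6.8% of all genes) and 55 lower (4.38%, beside 5.2%). The 13984 genes that bleomycin moved in neither direction were below 0 in 48.1%.

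The raised genes had medians over saline of 1.03 at 4 weeks of bleomycin, 0.35 at 6 weeks of recovery and 0.17 at 10 weeks, and the lowered genes -1.01, -0.43 and -0.13. These genes were chosen on the 4-week contrast, which makes its medians large, and all 3 contrasts share the saline mice, so the share of the distance covered is not read from them. Of the lowered genes, 55 are on the lists of hair shaft keratins, hair keratin-associated proteins and the inner root sheath. These are 14 of 14, 29 of 29 and 12 of 14 genes tested (all genes, 7.37%). Of hair growth regulators, 19 of 30 were also called lower there. The mean hair shaft level had a median of 1.87 at 4 weeks of bleomycin and 8.48 in saline. With the hair score as a covariate, raised and lowered genes were called again in that fit, so the sets differ from those above. They shared 1036 raised and 610 lowered genes with them. In these other sets the medians of the late difference were -0.13 for raised and 0.04 for lowered genes, and the shares were 67.9% and 56.6%. The part of hair phase in the late difference was not tested.

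**Figure D5:**
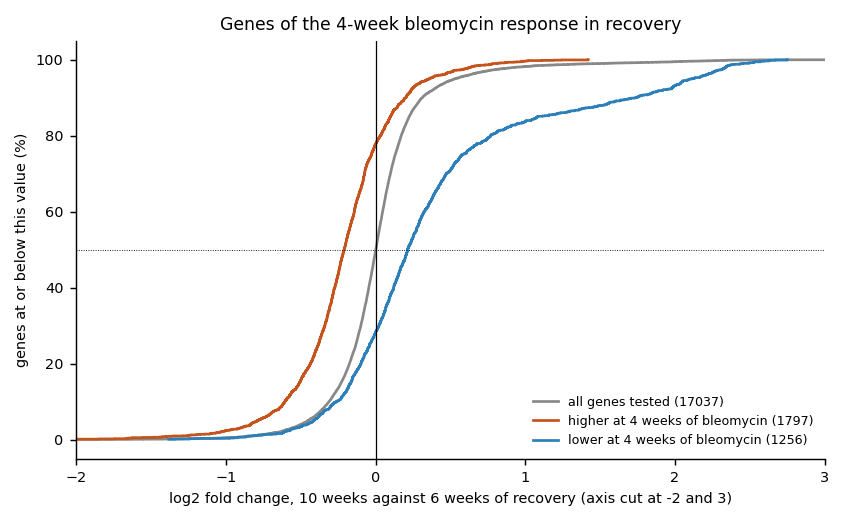
Cumulative share of genes (vertical axis) by log2 fold change at 10 weeks against 6 weeks of recovery (horizontal axis) for all genes tested and for genes raised or lowered by 4 weeks of bleomycin. The curve of raised genes is shifted to the left (median -0.21) and that of lowered genes to the right (median 0.21).

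Among genes with the smallest p in the higher direction, several passed only part of the criteria. Nufip2, an RNA-binding protein, passed the adjusted p (0.0314) but not the fold, with 282 to 345 (median 321) normalized counts at 6 weeks and 368 to 525 (median 421) at 10 weeks (log2 fold change 0.43). Dok4, an adaptor of receptor kinases, had 261 to 469.8 (median 302) and 341 to 819 (median 513), with overlap (log2 fold change 0.70 ± 0.17 SE, adjusted p = 0.0678). St8sia1, a ganglioside sialyltransferase, was at 0.62, Zbtb18, a transcriptional repressor, at 0.29, and C9orf72, of a complex in autophagy, at 0.33. Gm5537 had no read in any 6-week mouse and 302 reads over the 8 later mice, at least 73.4-fold higher against a floor of 3 reads over the 6-week group, but it did not pass the test (adjusted p = 0.0678). All of its 50-base stretches occur in Pgk1, so its reads cannot be told apart from those of that gene.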

How the data were processed

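Whole back skin of 44 mice was sequenced (stranded poly-A libraries, paired reads), and the 14 recovery mice were compared with 30 saline and bleomycin mice as reference. The authors aligned reads with STAR 2.4.0 and deposited counts divided by DESeq2 1.12.3 size factors, a normalized signal per gene. The build in their notes is mm10 (GRCm38), while how reads were counted per gene (software, strandedness, gene models) is not given in the sources used here. All non-zero values came back to whole reads (100% of values within a tolerance of 0.01), between 8509094 and 15285577 per mouse. Of 43411 genes, 98.9% were matched to a symbol.

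The main test was limma 3.58.1 (R 4.3.3, trend) on log2(normalized count + 1) over all 44 mice in 5 groups, for genes with a mean above 3. A gene passed at a fold change above 1.5 and a Benjamini-Hochberg adjusted p under 0.05 over all genes tested. The pseudocount shrinks fold changes of genes with few counts. The scripts were checked on simulated data. Named genes were all those past the test, the 10 with the smallest p each way, in each list those past the test and up to 3 with the smallest p, and the first 2 members of each list, of which some are not reported here. Genes and gene lists (58 lists, 1037 genes, of which 993 were tested) were chosen with earlier results of these data known, so nothing here is an independent test of them. List genes without a value are not analysed here. Alternatives were edgeR 4.0.16 and DESeq2 1.42.0 on the recovered reads, other scalings, filters, pseudocounts and mice, and the hair covariate. Same-numbered recovery mice are different animals, so the main fit has no block. Figures were drawn with matplotlib 3.10.9.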

Additional observations from a re-analysis of the deposited data

Results flagged for a closer look

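Of 271 groups of values (gene lists and genes, in 6-week or 10-week mice), 19 held a mouse far from the others by Dixon's criterion, where chance alone flags about 1 in 20 groups. Values are mean log2 levels for lists and log2 levels for genes. Mouse 4 at 6 weeks was highest of its group in hair growth regulators (8.154, others 7.385 to 7.629), melanocyte pigment genes (7.293, others 4.802 to 5.664), immediate early genes (8.986, others 8.548 to 8.69) and mammary epithelium (6.483, others 5.576 to 5.898). The same mouse was highest in Tyr (7.316, others 2.838 to 4.34), Dok4 (8.879, others 8.033 to 8.333) and Bambi (8.423, others 6.094 to 6.759), and it also had the highest hair shaft level of its group.

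Mouse 5 at 6 weeks, lowest in hair shaft keratins, was highest in nuclear respiratory chain genes (11.02, others 10.59 to 10.67) and C1qtnf6 (9.349, others 8.702 to 8.874) and lowest in Epgn (3.94, others 4.937 to 5.324). Mouse 1 at 6 weeks was lowest in Pdgfra (9.014, others 9.329 to 9.433).

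Mouse 3 at 10 weeks was lowest in TGF-beta targets (8.6, others 8.843 to 9.022), guidance and nerve genes (8.038, others 8.186 to 8.302), Adamts2 (9.665, others 10.15 to 10.56), Fkbp10 (7.91, others 8.315 to 8.68) and Isg15 (5.912, others 6.614 to 7.094), and highest in C9orf72 (8.935, others 8.294 to 8.566). Complement genes were lowest in 10-week mouse 5 (8.974, others 9.277 to 9.541). B and plasma cell genes were highest in 10-week mouse 7 (5.446, others 4.441 to 4.774).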

How the results depend on the processing

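The number of genes past the test depended on the setting. It was 15 in the fit reported, 58 without 2 mice of the other groups (saline mouse 1 and 2-week mouse 2), 59 with the recovery mice alone, 63 with DESeq2 (also 63 with the deposited size factors) and 376 with array weights (207 higher, 169 lower). It was 7 with the hair covariate and 6 without 6-week mice 4 and 5, both settings added after the data had been seen. All 15 were among the genes called by DESeq2, the 42-mouse fit and array weights. Leaving out each recovery mouse gave 6 (without 6-week mouse 3) to 30 (without 10-week mouse 4). The cause was not tested. With edgeR it was 21, and the other scalings, filters and pseudocounts gave 12 to 22.

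Medians of genes raised by bleomycin stayed between -0.27 and -0.13, and those of lowered genes between 0.04 and 0.44. Without each mouse they were -0.24 to -0.19 and 0.19 to 0.26. The raised and lowered genes were called again in each fit that held the saline mice, so the sets differ between settings. Of 58 list medians, 47 kept their sign in every setting tried (those of Langerhans, chitinase-like, clock, cornified envelope, glucocorticoid, hair shaft, hair keratin-associated, melanocyte, p53, nuclear respiratory chain and slow-twitch genes did not), and no gene past the test changed direction. A replicate block over mouse numbers gave 18 genes, 12 of them shared, and medians of -0.21 and 0.21. Same-numbered mice did not deviate together (correlations -0.691 to 0.107), so the numbers do not pair them.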

Other observations

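Some members of the gene lists, not yet given singly, did not pass the limma test. Cd22, a sialic acid binding receptor of B cells, had 7.70 to 21.5 (median 17.3) normalized counts at 6 weeks and 2.76 to 8.51 (median 6.40) at 10 weeks, with overlap, against a saline median of 3.50 and 64.1 at 4 weeks of bleomycin (log2 fold change -1.29 ± 0.33 SE, adjusted p = 0.0947). Cd79a, which marks B cells, had a median of 3.36 normalized counts at 6 weeks, and the source of the Cd22 reads was not tested. Mymk, a membrane protein required for muscle cell fusion, went from a median of 15.1 to 3.52 normalized counts after 141 at 4 weeks of bleomycin (log2 fold change -1.55, adjusted p = 0.274). Sfrp2, a secreted modulator of WNT signalling made by dermal fibroblasts, had 292 to 740.2 (median 423) and 129 to 734 (median 279), with overlap (log2 fold change -0.74, adjusted p = 0.369). Its saline median was 108 and its median at 4 weeks of bleomycin 55.4, so it stood lowest during injections and highest in recovery. Bambi, a decoy receptor that dampens TGF-beta signals, had 67.3 to 342 (median 77.0) and 57.9 to 553 (median 294), with a log2 fold change of 1.06 (adjusted p = 0.35).

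Retnla, a marker of alternatively activated macrophages that bleomycin lowered, had 1341 to 3504 (median 2359) normalized counts at 6 weeks and 2219.5 to 4147 (median 3379.7) at 10 weeks, around a saline median of 3444 and far from 123 at 4 weeks of bleomycin. Chil3, a chitinase-like protein with a median of 148 at 4 weeks of bleomycin, was at medians of 2.16 and 1.81 in the recovery groups and 2.50 in saline. Neither gene passed the test between the recovery times (adjusted p = 0.616 and 0.91).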
